A study of Homo sapiens with 4 samples.

Results

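The genes described here encode the membrane, the digestive enzymes and the proton pump of the lysosome, with 2 transcription factors that act on such genes. They were taken from the 2 RNA tables of the series by symbol: 29 named genes, and every row whose symbol starts with ATP6V0 or ATP6V1. All 29 named genes and 18 ATP6V0 or ATP6V1 rows were found, which gives 47 of the 13092 genes listed in at least 1 table. The RNA came from RKO, an established human colon carcinoma cell line. One library was made from RKO cells overexpressing HADH-S, a form of the mitochondrial fatty acid oxidation enzyme HADH that the series title describes as nuclear, and 1 library from control RKO cells labelled wild type. The sources used here do not name the construct, and do not say whether the control carried an empty vector or whether either culture was a clone or a pool. The chromatin immunoprecipitation and input libraries of the series were not analysed here.

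Lysosomes are acidic organelles that break down proteins, glycans, lipids and nucleic acids delivered by endocytosis and autophagy. The V-ATPase, a rotary pump made of a cytosolic ATP-hydrolysing sector (V1) and a membrane sector that carries protons (V0), acidifies the lumen so that the hydrolases work. Heavily glycosylated membrane proteins line the inner face of the organelle, and channels and transporters release ions, sterols and digestion products. TFEB and TFE3 are basic helix-loop-helix factors known to bind E-box sequences in the promoters of many of these genes, in a motif known as CLEAR.

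With HADH-S, most of the measured lysosomal genes were slightly above their control level. Of 44 members averaging at least 1 RPKM, 35 had a higher value with HADH-S (79.5%, against 52.2% of all genes at that level), and the median difference was 1.10-fold. Among the classes of more than 2 genes, membrane proteins had a median of 1.14-fold, the V0 sector 1.13-fold, hydrolases 1.07-fold and the V1 sector 1.03-fold. The members whose RPKM ratio was at least 1.2-fold from 1 with a counting interval that excludes 1 were CD68 (1.23-fold), the aspartic protease CTSD (1.29-fold), the acid alpha-glucosidase GAA (1.45-fold) and the transcription factor TFE3 (1.201-fold) above the control, and the beta-galactosidase GLB1 (0.802-fold) below it. The share of all genes that meets both limits was not computed. Of all genes averaging at least 1 RPKM, 13.8% had an interval above 1 and 11.6% one below it. On the log2(RPKM + 1) scale, 11.5% were at least 1.2-fold higher and 6.76% at least 1.2-fold lower. With a single library per condition there was no replicate check of any difference and no test between conditions. Every direction given therefore describes these libraries.

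The tables give RPKM, which scales the reads of a gene to its transcript length and to the library, so levels can be set side by side between genes. Whole reads recovered from them came to 6963608 in the HADH-S library and 6773421 in the control library, with a median per listed gene of 206 reads in the HADH-S library and 200 reads in the control library. Ratios are RPKM with HADH-S over RPKM in control cells, and carry an exact conditional 95% interval from the reads, which covers counting error only; copies made by PCR were counted as separate reads wherever the authors kept them. Differences over groups of genes are on the log2(RPKM + 1) scale, which understates the change of low genes, and "past 1.2-fold" means a log2 value of at least 0.263 in size on it. The targeted gene, HADH, stood at 54.4 RPKM in HADH-S cells and 26.5 RPKM in control cells (ratio 2.05, interval 1.79 to 2.35), the direction of the label. The annotated spans of 12 members overlap another coding gene, and reads of such pairs may be shared. They include CD63, which overlaps RDH5, and CTSA, which overlaps PLTP, and the part of these genes in their values was not tested. In bulk RNA a change in cell composition and a change in RNA per cell cannot be told apart.

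CD68 is best known as a marker of macrophages, so markers of other cells were examined. Of 17 macrophage and leukocyte markers, 15 (PTPRC, CD14 and CSF1R among them) were listed in neither table and 0 averaged 1 RPKM. The sum over the list was 0.735 RPKM in HADH-S cells and 0.777 RPKM in control cells, most of it ITGAX. Fibroblast and endothelial markers summed to 0.169 RPKM in HADH-S cells and 0.104 RPKM in control cells, and 9 of 12 were listed in neither table. The epithelial keratin KRT18 stood at 93.8 RPKM in HADH-S cells and 91.7 RPKM in control cells, and EPCAM at 9.57 RPKM in HADH-S cells and 8.202 RPKM in control cells. KRT8 stood at 2.81 RPKM in HADH-S cells and 2.54 RPKM in control cells, and the intestinal factor CDX2 at 4.37 RPKM in HADH-S cells and 3.597 RPKM in control cells. The 4 epithelial markers averaging at least 1 RPKM were thus all above the control, each with an interval that includes 1. Their median log2 value was 0.15, against 0.13 for the lysosomal genes, and ranged from 0.03 to 0.18 under alternative settings. KRT18, which holds most of the RPKM of the list, had a log2 value of 0.03. CLDN7 had 5 reads in HADH-S cells and 0 in control cells, and CLDN4 had 0 and 1, so neither was evaluated. The list summed to 111 RPKM in HADH-S cells and 106 RPKM in control cells, and its part in the results below was not tested. CDH1, KRT19, KRT20 and VIL1 were listed in neither table, so that part of the epithelial list was not seen in these cells.

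Promoter windows of the members, from RefSeq (GRCh38.p14) and reaching from 250 bases before to 50 bases after the annotated start, are shown for 6 genes that the results below turn on. The capitals mark each copy of the palindromic E-box CACGTG. MCOLN1 at chr19:7522374-7522673 (plus strand), GAA at chr17:80101331-80101630 (plus strand) and CTSD at chr11:1763878-1764177 (minus strand) are members past 1.2-fold with the motif. LAMP1 at chr13:113296989-113297288 (plus strand) has the most copies, ATP6V0D1 at chr16:67481108-67481407 (minus strand) is a pump subunit with it, and CD68 at chr17:7579388-7579687 (plus strand) is the most abundant member with HADH-S and has none. The genes shown were chosen after the values were seen. Members with the motif that are not shown include ATP6V1G1 (ratio 1.03) and NEU1 (ratio 0.989), whose intervals include 1.
MCOLN1: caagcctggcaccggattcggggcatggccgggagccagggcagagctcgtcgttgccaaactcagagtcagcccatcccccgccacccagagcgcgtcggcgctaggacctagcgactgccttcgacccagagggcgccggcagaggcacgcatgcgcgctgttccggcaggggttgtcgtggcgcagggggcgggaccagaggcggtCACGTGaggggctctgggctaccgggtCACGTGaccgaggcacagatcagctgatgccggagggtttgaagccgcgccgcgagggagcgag
GAA: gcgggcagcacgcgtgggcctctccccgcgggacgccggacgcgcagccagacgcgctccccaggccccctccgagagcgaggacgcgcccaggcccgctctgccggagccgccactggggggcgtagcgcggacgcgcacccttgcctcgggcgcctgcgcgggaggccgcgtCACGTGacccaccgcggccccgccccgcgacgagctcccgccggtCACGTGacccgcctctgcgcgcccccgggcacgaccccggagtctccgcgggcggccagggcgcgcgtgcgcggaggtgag
CTSD: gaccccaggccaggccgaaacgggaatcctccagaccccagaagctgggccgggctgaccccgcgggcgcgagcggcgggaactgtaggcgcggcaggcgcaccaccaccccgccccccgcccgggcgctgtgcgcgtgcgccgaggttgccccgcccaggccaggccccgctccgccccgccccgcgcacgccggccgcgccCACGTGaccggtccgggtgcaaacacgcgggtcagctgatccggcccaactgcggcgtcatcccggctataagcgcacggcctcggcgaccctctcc
LAMP1: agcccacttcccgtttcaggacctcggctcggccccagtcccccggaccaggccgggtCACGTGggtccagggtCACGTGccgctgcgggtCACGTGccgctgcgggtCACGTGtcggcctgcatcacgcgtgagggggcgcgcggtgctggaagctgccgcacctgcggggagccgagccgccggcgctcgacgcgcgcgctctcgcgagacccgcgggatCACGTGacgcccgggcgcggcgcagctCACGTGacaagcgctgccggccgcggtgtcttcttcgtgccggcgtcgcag
ATP6V0D1: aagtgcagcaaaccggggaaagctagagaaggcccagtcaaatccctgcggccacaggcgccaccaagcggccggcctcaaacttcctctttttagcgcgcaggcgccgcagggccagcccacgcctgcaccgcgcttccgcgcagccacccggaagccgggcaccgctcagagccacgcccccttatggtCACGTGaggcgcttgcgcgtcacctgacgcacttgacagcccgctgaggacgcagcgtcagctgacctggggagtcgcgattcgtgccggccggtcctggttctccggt
CD68: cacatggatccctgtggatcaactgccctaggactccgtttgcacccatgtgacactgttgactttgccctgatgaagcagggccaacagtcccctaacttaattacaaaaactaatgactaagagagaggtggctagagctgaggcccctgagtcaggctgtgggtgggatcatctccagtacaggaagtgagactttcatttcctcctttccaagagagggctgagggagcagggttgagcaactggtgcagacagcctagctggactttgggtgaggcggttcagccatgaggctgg

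The motif was counted in these windows. Windows were found for 33 of the 47 members, some with several starts. At least 1 CACGTG stood in a window of 10 of the 33 members (30.3%), against 8.77% of the 27305 genes with a window and 13.2% of the 8424 such genes averaging at least 1 RPKM. The longer TCACGTGA, which contains it, was found in 6 members (18.2%), against 2.505% of the expressed genes, and GTCACGTGAC, which contains both, in GAA, MCOLN1 and ATP6V1G1 (9.09%), against 0.973%. All 3 sequences equal their own reverse complement, so both strands were read at once. LAMP1 had 6 copies of CACGTG, ATP6V0B, CTSA, GAA and MCOLN1 had 2 each, and ATP6V0D1, ATP6V1G1, CD63, CTSD and NEU1 had 1 each. A match describes the letters of a window and does not show that a factor was bound there. The windows come from the reference genome, and the motif is known from promoters of many of these genes. Its shares here therefore describe the gene list and not the HADH-S or control library.

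**Figure D1:**
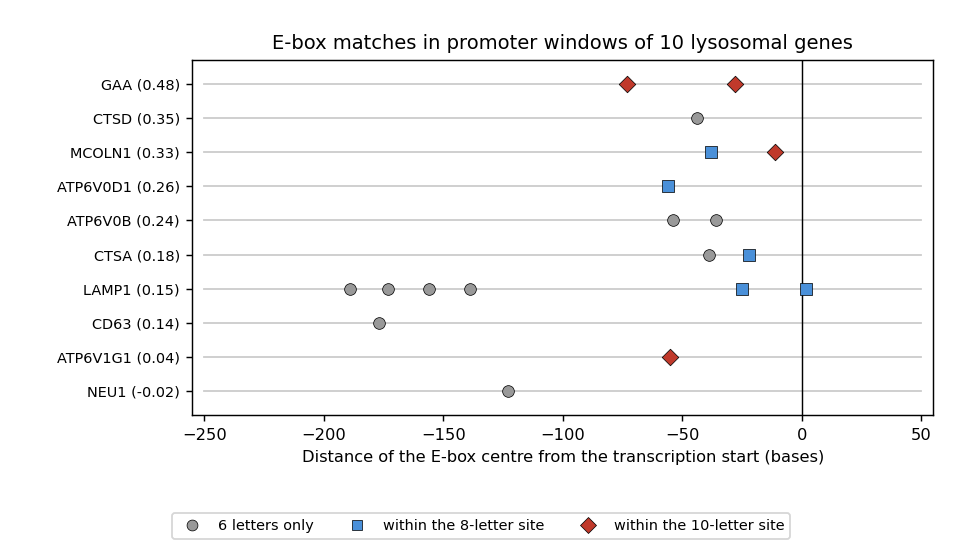
Position of each CACGTG centre, in bases from the annotated transcription start, in the promoter windows of the 10 members that hold one. The value in parentheses is the log2 difference of the gene (HADH-S over control), the vertical line is the start, and GAA, at the top with 0.48, has both copies inside the 10-letter site.

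The 10 members with CACGTG had a median log2 value of 0.21, and the 21 other measured members with a window had one of 0.13. Of the first, 3 were past 1.2-fold higher, and of the others 3 as well, where 11.5% of all genes averaging at least 1 RPKM were. Over all expressed genes with a window, those with CACGTG had a median of 0.01 and those without it also 0.01. The difference between members with and without the motif was not tested.

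By summed RPKM the membrane proteins were the most abundant class, mostly through CD68 and CD63. Of the 7, 6 were higher with HADH-S (85.7%, against 52.2% of all genes averaging at least 1 RPKM). The intervals of 4 of the 7 include 1. CD68, a sialomucin of the LAMP family, stood at 478 RPKM in HADH-S cells and 389 RPKM in control cells, from 5677 and 4492 reads. Its ratio of 1.23 had an interval of 1.18 to 1.28, one of the narrowest among the members because of its depth. CD63, a tetraspanin of late endosomes, lysosomes and exosomes, stood at 429 RPKM in HADH-S cells and 389.9 RPKM in control cells (ratio 1.10, interval 1.05 to 1.15). CD68 and CD63 were therefore level in the control and apart with HADH-S. Together they made up 85.9% of the summed RPKM of the class with HADH-S and 85.1% in the control.

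LAMP1 and LAMP2, the main glycoproteins of the lysosomal membrane, were several times lower in level than CD68. LAMP1 stood at 74.3 RPKM in HADH-S cells and 66.6 RPKM in control cells (ratio 1.11, interval 1.03 to 1.205). LAMP2, which also serves chaperone-mediated autophagy, stood at 28.7 RPKM in HADH-S cells and 25.1 RPKM in control cells, with an interval of 0.989 to 1.32 that includes 1. SCARB2, the receptor that carries beta-glucocerebrosidase to lysosomes, was the single membrane protein with a lower value, at 25.8 RPKM in HADH-S cells and 27.8 RPKM in control cells, and its interval also includes 1.

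The sterol exporter NPC1 and the cation channel MCOLN1 were the least abundant of the class. NPC1, which moves cholesterol out of the lysosome, stood at 10.4 RPKM in HADH-S cells and 8.99 RPKM in control cells (ratio 1.16, interval 0.99 to 1.36). MCOLN1, which releases calcium from lysosomes, stood at 9.85 RPKM in HADH-S cells and 7.65 RPKM in control cells, from 143 and 108 reads. Its ratio of 1.29 put it past 1.2-fold with CD68, but its interval of 0.996 to 1.67 reaches 1. The summed RPKM of the 7 genes was 1056 in HADH-S cells and 915 in control cells (ratio 1.15), and without CD68 and CD63, an alternative chosen after the values were seen, 149 and 136 (ratio 1.09).

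The 2 luminal proteins that help hydrolases or lipids without cleaving a bond themselves were both above the control. PSAP, the precursor of the saposins that present sphingolipids to their hydrolases, stood at 171 RPKM in HADH-S cells and 147 RPKM in control cells, from 3379 and 2811 reads (ratio 1.17, interval 1.11 to 1.23). NPC2, which hands cholesterol to NPC1, stood at 42.7 RPKM in HADH-S cells and 38.98 RPKM in control cells, and its ratio of 1.09 had an interval of 0.913 to 1.31 that includes 1.

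**Figure D2:**
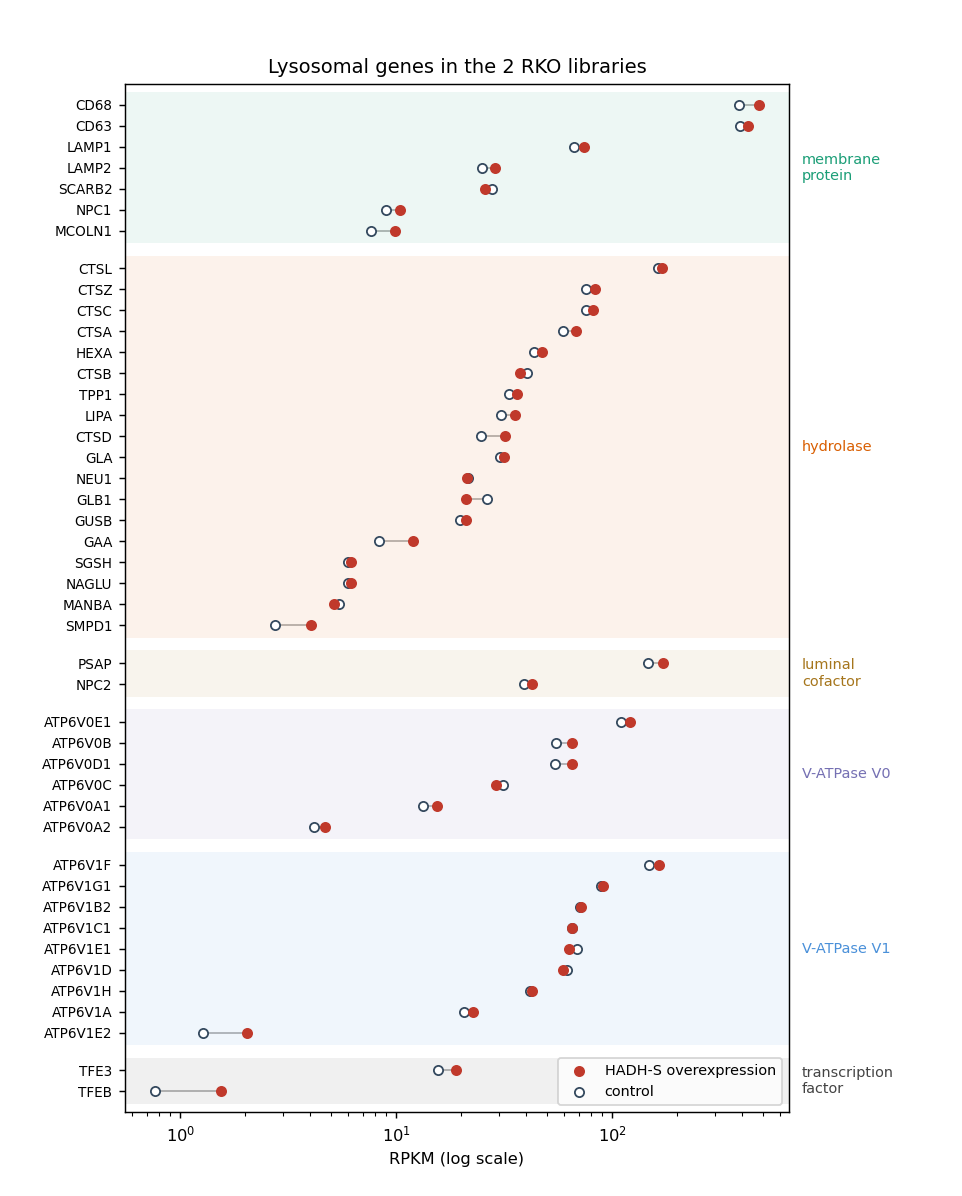
RPKM of the 44 members averaging at least 1 RPKM, on a log axis, in the HADH-S library (filled red) and the control library (open), grouped by class and ordered by level. The filled point lies to the right of the open one for 35 of the 44 genes, and the distance between the points is small beside the range of levels between genes.

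Among the 18 hydrolases, 14 had a higher value with HADH-S (77.8%, against 52.2% of all genes averaging at least 1 RPKM). Of the 18, 3 were past 1.2-fold higher (16.7%, against 11.5%) and 1 was past it lower (5.56%, against 6.76%). Both shares past 1.2-fold were near those of all genes. The proteases held most of the RNA of the class, with a summed 511 RPKM in HADH-S cells and 473 RPKM in control cells for 7 genes. The cysteine protease CTSL was the most abundant at 171 RPKM in HADH-S cells and 163 RPKM in control cells (ratio 1.05, interval 0.988 to 1.12). CTSZ, a carboxypeptidase, stood at 83.7 RPKM in HADH-S cells and 76.0 RPKM in control cells (ratio 1.10, interval 0.998 to 1.21). CTSC, a dipeptidyl peptidase that activates serine proteases, stood at 82.1 RPKM in HADH-S cells and 76.2 RPKM in control cells (ratio 1.08, interval 0.987 to 1.18). For these 3 genes the interval includes 1.

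CTSD and CTSA were the proteases whose intervals lay above 1. CTSD, the main aspartic protease of lysosomes, stood at 31.9 RPKM in HADH-S cells and 24.8 RPKM in control cells, from 456 and 345 reads (ratio 1.29, interval 1.12 to 1.48). CTSA, a carboxypeptidase that also protects GLB1 and NEU1 in a complex, stood at 67.8 RPKM in HADH-S cells and 59.6 RPKM in control cells (ratio 1.14, interval 1.04 to 1.25). TPP1, a tripeptidyl peptidase, stood at 36.4 RPKM in HADH-S cells and 33.2 RPKM in control cells. CTSB, a cysteine protease, was the single protease with a lower value, at 37.5 RPKM in HADH-S cells and 40.4 RPKM in control cells (ratio 0.928, interval 0.849 to 1.01).

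The 9 enzymes that act on glycans differed among themselves, and their median log2 value was 0.04. GAA, which degrades glycogen, stood at 12.0 RPKM in HADH-S cells and 8.30 RPKM in control cells, from 314 and 211 reads (ratio 1.45, interval 1.21 to 1.73). GLB1, which removes terminal galactose from gangliosides and keratan sulfate, lay on the other side, at 21.1 RPKM in HADH-S cells and 26.3 RPKM in control cells, from 371 and 450 reads (ratio 0.802, interval 0.697 to 0.922). GLB1 was the only one of the 44 members past 1.2-fold lower and the only one whose interval lay below 1. Its 2 partners in the multienzyme complex did not share that value, since CTSA lay above 1 and the sialidase NEU1 stood at 21.3 RPKM in HADH-S cells and 21.5 RPKM in control cells. GLB1 overlaps the coding gene TMPPE, which stood at 0.766 RPKM in HADH-S cells and 0.925 RPKM in control cells, and the part of that gene in the GLB1 value was not tested.

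The remaining glycan enzymes were close to their control levels. HEXA, a subunit of beta-hexosaminidase, stood at 47.6 RPKM in HADH-S cells and 43.3 RPKM in control cells. The alpha-galactosidase GLA stood at 31.8 RPKM in HADH-S cells and 30.3 RPKM in control cells, and the beta-glucuronidase GUSB at 21.0 RPKM in HADH-S cells and 19.7 RPKM in control cells. Of the heparan sulfate enzymes, SGSH stood at 6.16 RPKM in HADH-S cells and 6.004 RPKM in control cells, and NAGLU at 6.15 RPKM in HADH-S cells and 5.97 RPKM in control cells. The beta-mannosidase MANBA stood at 5.16 RPKM in HADH-S cells and 5.43 RPKM in control cells. The intervals of all 6 genes include 1.

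Both lipid hydrolases had higher values with HADH-S. LIPA, the acid lipase that frees cholesterol from cholesteryl esters, stood at 35.4 RPKM in HADH-S cells and 30.8 RPKM in control cells (ratio 1.15, interval 1.024 to 1.30). The annotated span of LIPA overlaps IFIT1, IFIT2, IFIT3 and IFIT5, which are interferon-induced. IFIT1 stood at 16.7 RPKM in HADH-S cells and 2.75 RPKM in control cells, and IFIT5 at 17.5 RPKM in HADH-S cells and 13.4 RPKM in control cells, and their part in the LIPA value was not tested. SMPD1, the acid sphingomyelinase, stood at 4.05 RPKM in HADH-S cells and 2.76 RPKM in control cells. Its ratio of 1.47 rested on 68 and 45 reads, and the interval of 0.994 to 2.19 includes 1. Over all 18 hydrolases the summed RPKM was 722 in HADH-S cells and 673 in control cells (ratio 1.07).

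**Figure D3:**
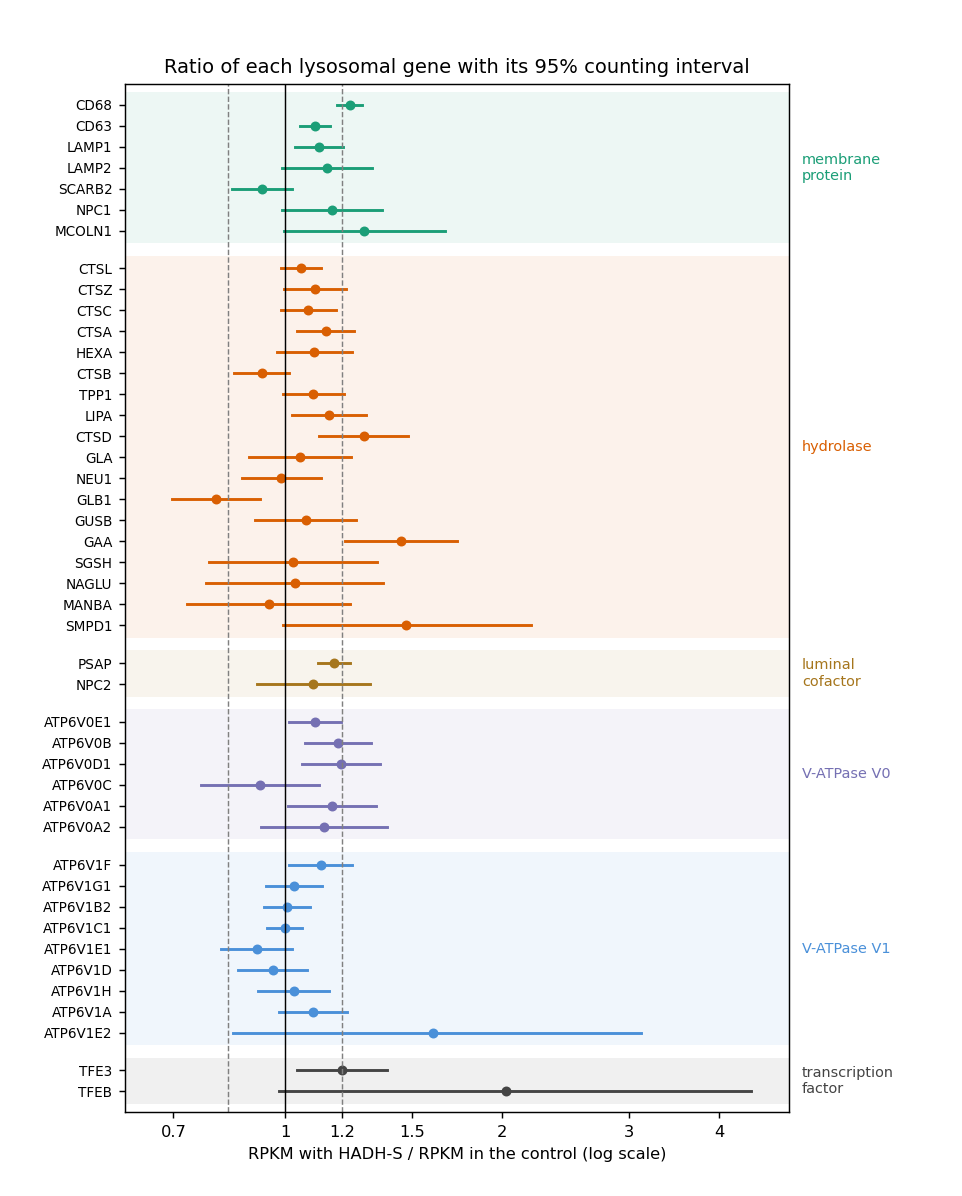
Ratio of RPKM with HADH-S to RPKM in control cells for the 44 members, on a log axis, with the 95% counting interval as a bar. The solid line marks a ratio of 1 and the dashed lines a ratio of 1.2 in either direction, and the bars of 14 genes lie wholly above 1 and that of GLB1 wholly below it.

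The proton pump was represented by 17 subunit genes, 15 of them averaging at least 1 RPKM. ATP6V0A4, ATP6V0D2, ATP6V0E2, ATP6V1B1 and ATP6V1G3, isoforms known from kidney, bone or other specialised cells, were listed in neither table. ATP6V1G2, the neuronal G isoform, had 2 reads in HADH-S cells and 0 in control cells, and ATP6V1C2 had 1 in each library, so neither was evaluated. ATP6V1FNB, which the symbol rule also takes in, is named as a neighbour of ATP6V1F and not as a subunit, and had 6 reads in HADH-S cells and 7 in control cells. In these cells the pump genes were thus mainly of the ubiquitous isoforms.

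In the membrane sector V0, 5 of 6 subunits were higher with HADH-S (83.3%, against 52.2% of all genes averaging at least 1 RPKM). The intervals of 4 lay above 1, as did 13.8% of those of all genes. ATP6V0E1, a small subunit, was the most abundant at 122 RPKM in HADH-S cells and 110.5 RPKM in control cells (ratio 1.10, interval 1.01 to 1.198). ATP6V0B, a proteolipid of the rotor ring, stood at 65.4 RPKM in HADH-S cells and 55.2 RPKM in control cells (ratio 1.18, interval 1.06 to 1.32). ATP6V0D1, which joins the ring to the central stalk, stood at 65.0 RPKM in HADH-S cells and 54.3 RPKM in control cells (ratio 1.197, interval 1.06 to 1.36). ATP6V0C, the main proteolipid of the ring, differed from these in having a lower value, at 28.9 RPKM in HADH-S cells and 31.3 RPKM in control cells (ratio 0.922, interval 0.764 to 1.11).

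The a subunit, which holds the proton half-channels and sets where the pump is placed, comes in isoforms. ATP6V0A1 stood at 15.4 RPKM in HADH-S cells and 13.3 RPKM in control cells (ratio 1.16, interval 1.01 to 1.34), and ATP6V0A2, the Golgi isoform, at 4.70 RPKM in HADH-S cells and 4.15 RPKM in control cells (ratio 1.13, interval 0.925 to 1.39). The isoform known from osteoclasts and lysosomes, TCIRG1, falls outside the symbol rule and stood at 13.2 RPKM in HADH-S cells and 11.3 RPKM in control cells. ATP6V0A1 made up 46.3% of the RPKM of these 3 isoforms in both libraries, ATP6V0A2 14.1% in HADH-S cells and 14.5% in control cells, and TCIRG1 39.6% in HADH-S cells and 39.3% in control cells. The composition of the a subunit RNA was therefore nearly the same in both libraries.

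In the cytosolic sector V1, values lay on both sides of the control. ATP6V1F, a small subunit of the central stalk, was the most abundant at 166 RPKM in HADH-S cells and 148 RPKM in control cells (ratio 1.12, interval 1.01 to 1.24), and it was the only V1 subunit whose interval lay above 1. The catalytic subunit ATP6V1A was the least abundant of the ubiquitous subunits, at 22.6 RPKM in HADH-S cells and 20.7 RPKM in control cells (ratio 1.09, interval 0.981 to 1.22). Its partner in the hydrolytic head, ATP6V1B2, stood at 71.8 RPKM in HADH-S cells and 71.3 RPKM in control cells (ratio 1.01, interval 0.934 to 1.08). ATP6V1C1, which regulates the docking of V1 on V0, stood at 65.1 RPKM in both libraries, from 2555 and 2486 reads, with an interval of 0.946 to 1.06.

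The stalk subunits were close to the control as well. ATP6V1G1 stood at 91.1 RPKM in HADH-S cells and 88.6 RPKM in control cells (ratio 1.03, interval 0.940 to 1.13). ATP6V1E1 stood at 63.1 RPKM in HADH-S cells and 69.1 RPKM in control cells, ATP6V1D at 59.4 RPKM in HADH-S cells and 61.8 RPKM in control cells, and ATP6V1H at 42.7 RPKM in HADH-S cells and 41.6 RPKM in control cells. ATP6V1E2, the isoform known from testis, was past 1.2-fold at 2.03 RPKM in HADH-S cells and 1.27 RPKM in control cells, but on 28 and 17 reads (ratio 1.602, interval 0.847 to 3.12), and it overlaps the coding gene RHOQ. The summed RPKM of V0 was 301 in HADH-S cells and 269 in control cells (ratio 1.12), and that of V1 584 in HADH-S cells and 567 in control cells (ratio 1.03). The difference between the sectors was not tested.

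TFE3 and TFEB, the transcription factors of lysosomal genes, differed in abundance by an order of magnitude. TFE3 stood at 18.9 RPKM in HADH-S cells and 15.7 RPKM in control cells, from 432 and 350 reads (ratio 1.201, interval 1.04 to 1.39), and its log2 value of 0.25 lay just within the 1.2-fold limit. TFEB stood at 1.55 RPKM in HADH-S cells and 0.765 RPKM in control cells, from 25 and 12 reads. Its ratio of 2.03 was the highest of the members, but the interval of 0.981 to 4.43 includes 1, and TFEB passed the filter on low values through the HADH-S library.

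Set against all genes, more of the members lay above the control, mostly by small factors. Of the 44, 7 were past 1.2-fold higher (15.9%) where 11.5% of the 10331 genes averaging at least 1 RPKM were, and 1 was past it lower (2.27%) where 6.76% were. The 7 were CD68, MCOLN1, CTSD, GAA, SMPD1, ATP6V1E2 and TFEB, and for 4 of them (MCOLN1, SMPD1, ATP6V1E2 and TFEB) the interval includes 1. The share past 1.2-fold higher was thus near that of all genes. TFEB is counted among the 7 and the 44 although it passed the filter on low values through the HADH-S library. Values above the control were seen in 79.5% of members and in 52.2% of all genes, and the medians on the log2 scale were 0.13 and 0.01.

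The counting intervals lay above 1 for 14 members (31.8%) and for 13.8% of all genes, and below 1 for 1 member (2.27%) and for 11.6% of all genes. Over all genes the intervals exclude 1 more often than counting error at 95% would give. Most members are well expressed, which makes their intervals narrow. Among genes averaging at least 10 RPKM, intervals lay above 1 for 14 of 35 members (40.0%) and for 16.6% of 5828 genes, and below 1 for 1 member (2.86%) and for 14.3% of them. In that range 3 members were past 1.2-fold higher (8.57%, against 7.77% of genes) and 1 past it lower (2.86%, against 3.93%), while 27 were above the control (77.1%, against 51.9%). These shares describe the 2 libraries and were not tested.

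Other lysosomal genes, taken from lists of known residents that the symbol rule does not hold, gave similar values for enzymes and smaller ones for membrane proteins. Of 32 further hydrolases and luminal factors averaging at least 1 RPKM, 22 had a higher value with HADH-S, 7 were past 1.2-fold higher and 0 past it lower, with a median log2 value of 0.13. Of all genes at that level, 52.2% had a higher value, 11.5% were past 1.2-fold higher and 6.76% past it lower. The phospholipase PLA2G15 stood at 6.45 RPKM in HADH-S cells and 4.06 RPKM in control cells (ratio 1.59, interval 1.18 to 2.15). The endolysosomal nuclease PLD3 stood at 15.9 RPKM in HADH-S cells and 10.5 RPKM in control cells (ratio 1.51, interval 1.23 to 1.86). Both intervals lay above 1, as did those of 7 of the 32 genes in all, while those of 2 lay below it. Of the intervals of all genes at that level, 13.8% lay above 1 and 11.6% below it. PPT1 stood at 86.0 RPKM in HADH-S cells and 93.6 RPKM in control cells (ratio 0.918, interval 0.853 to 0.988). PRCP stood at 38.1 RPKM in HADH-S cells and 42.8 RPKM in control cells (ratio 0.890, interval 0.793 to 0.9999).

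Of 27 further lysosomal membrane proteins, 18 had a higher value with HADH-S (against 52.2% of all genes averaging at least 1 RPKM). Past 1.2-fold, 5 were higher (against 11.5% of all genes) and 0 lower (against 6.76%). Their median log2 value was 0.06, and among those averaging at least 10 RPKM it was -0.02, on the other side of 0. The nucleoside transporter SLC29A3 stood at 3.88 RPKM in HADH-S cells and 1.83 RPKM in control cells, from 61 and 28 reads (ratio 2.12, interval 1.33 to 3.44). LAMP3, a LAMP relative known to be induced by interferon, stood at 1.57 RPKM in HADH-S cells and 0.739 RPKM in control cells (ratio 2.13, interval 1.15 to 4.12), from 35 and 16 reads, and passed the filter on low values through the HADH-S library. The cystine exporter CTNS stood at 7.09 RPKM in HADH-S cells and 5.34 RPKM in control cells (ratio 1.33, interval 1.005 to 1.76). The proton-coupled amino acid transporter SLC36A1 stood at 4.08 RPKM in HADH-S cells and 5.06 RPKM in control cells (ratio 0.806, interval 0.651 to 0.996), and TMEM106B, a glycoprotein of late endosomes and lysosomes, at 4.74 RPKM in HADH-S cells and 5.78 RPKM in control cells (ratio 0.820, interval 0.718 to 0.937). Both intervals lay below 1, and the log2 values of -0.255 for SLC36A1 and -0.24 for TMEM106B stayed just within the 1.2-fold limit. The 0 past it lower became 1 under each of the 3 rescalings and with a pseudocount of 0.5, and 2 with a pseudocount of 0.1.

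Pump subunits and partners outside the symbol rule lay in both directions. Of 13 genes, 2 were past 1.2-fold higher and 3 past it lower, and the median (0.14) and the mean (-0.01) of the log2 values differ in sign. Of all genes averaging at least 1 RPKM, 11.5% were past 1.2-fold higher and 6.76% past it lower. The accessory subunit ATP6AP1 stood at 33.2 RPKM in HADH-S cells and 26.9 RPKM in control cells (ratio 1.24, interval 1.08 to 1.42), and RNASEK, a small V0 subunit, at 153 RPKM in HADH-S cells and 126 RPKM in control cells (ratio 1.22, interval 1.10 to 1.35). DMXL1, of the complex that assembles the pump, stood at 3.003 RPKM in HADH-S cells and 4.14 RPKM in control cells (ratio 0.726, interval 0.610 to 0.862). OXR1, one of a family of TLDc-domain proteins that bind V1, stood at 14.6 RPKM in HADH-S cells and 20.9 RPKM in control cells (ratio 0.7004, interval 0.602 to 0.814). VMA21, an assembly factor, was the third gene past 1.2-fold lower, with an interval that includes 1. DMXL2 stood at 6.37 RPKM in HADH-S cells and 7.78 RPKM in control cells (ratio 0.818, interval 0.721 to 0.928). Its log2 value of -0.253 stayed just within the 1.2-fold limit. In all, the intervals of 3 of the 13 genes lay above 1 and those of 3 below it. Of the intervals of all genes averaging at least 1 RPKM, 13.8% lay above 1 and 11.6% below it. NCOA7, another TLDc-domain protein, had a ratio of 1.14 (interval 0.963 to 1.36), and TMEM199, another assembly factor, one of 1.14 (interval 0.955 to 1.37), so assembly and regulatory genes lay on both sides of the control.

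The machinery that tags hydrolases with mannose 6-phosphate and delivers them had a median near the control level, with genes on both sides. Of 14 genes, 1 was past 1.2-fold higher (against 11.5% of all genes averaging at least 1 RPKM) and 0 past it lower (against 6.76%). The median log2 value was -0.02 and the mean 0.05. The one was NAGPA, which uncovers the mannose 6-phosphate tag, at 8.41 RPKM in HADH-S cells and 5.09 RPKM in control cells (ratio 1.65, interval 1.23 to 2.22). The sulfatase activator SUMF1 stood at 11.04 RPKM in HADH-S cells and 9.08 RPKM in control cells (ratio 1.22, interval 0.961 to 1.54), and AP1M1, of the clathrin adaptor at the trans-Golgi, at 10.5 RPKM in HADH-S cells and 12.5 RPKM in control cells (ratio 0.839, interval 0.679 to 1.04). The intervals of SUMF1 and AP1M1 include 1. The cation-independent mannose 6-phosphate receptor IGF2R stood at 11.9 RPKM in HADH-S cells and 10.06 RPKM in control cells, from 1163 and 957 reads, and its interval lay above 1 (ratio 1.18, interval 1.08 to 1.29). AP1G1, another subunit of that adaptor, stood at 28.5 RPKM in HADH-S cells and 31.6 RPKM in control cells, and its interval lay below 1 (ratio 0.899, interval 0.811 to 0.997).

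**Figure D4:**
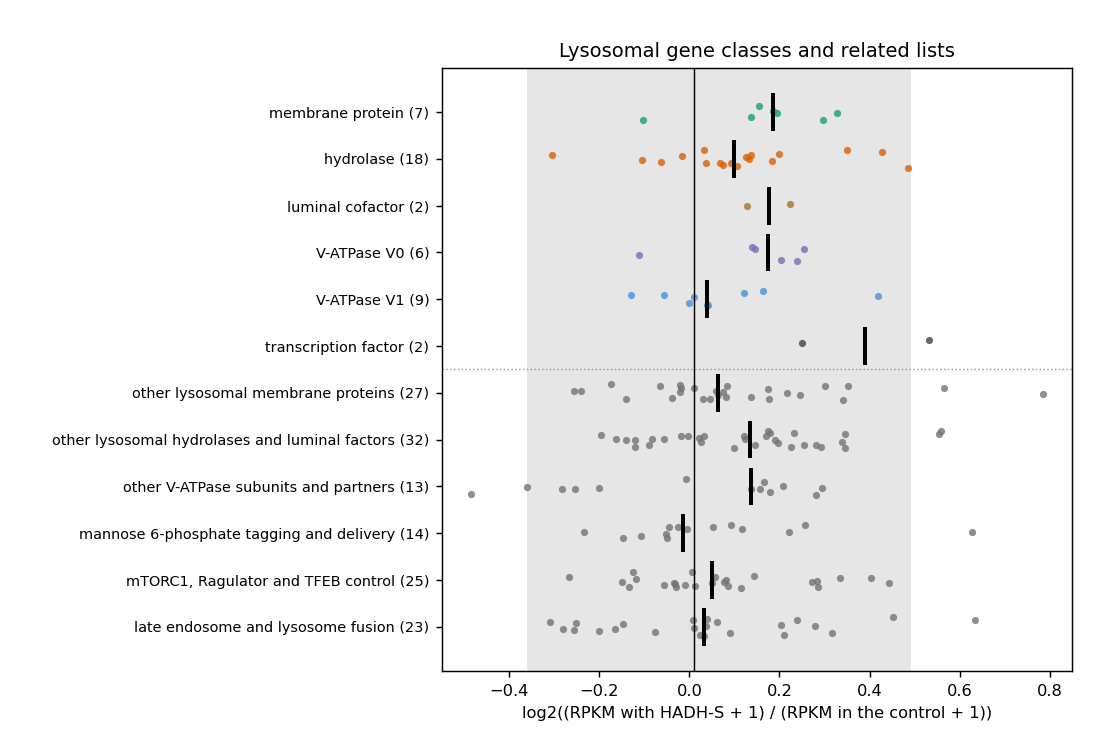
Log2 difference of each gene (HADH-S over control, with a pseudocount of 1) for the member classes above the dotted line and for the related lists below it, with the number of genes in parentheses and the median as a black bar. The vertical line is the median of all 10331 genes (0.01) and the grey band holds 95% of them (-0.36 to 0.49), and most lysosomal genes lie inside the band and to the right of the line.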

How the data were processed

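Messenger RNA from 2 RKO libraries was analysed, 1 with HADH-S overexpression and 1 control. The authors deposited 1 RPKM value per gene and library, per the file headers, with the transcript length in each row label. The submitters' processing notes, shared by the whole series, list fastp 0.23.2, SAMtools 1.9, MACS2 1.4.2, ChIPseeker and GRCh38. No source used here gives the RNA aligner, read counter, strand setting or annotation. Reads of overlapping or antisense genes can therefore not be separated.

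RPKM times transcript length was a whole multiple of 1 step per library for 100% of values, within a tolerance of 0.01 reads, and gave the reads. A gene in 1 table only was taken as 0 reads in the other. All 47 symbols equalled the reference name of their Ensembl identifier. Values used a pseudocount of 1, an average of at least 1 RPKM, a fold of 1.2 and Clopper-Pearson 95% intervals (SciPy 1.17.1, pandas 2.3.3). Scripts were tested on simulated reads.

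Every member found is named with its values. Ratios with intervals are given for members past 1.2-fold, the 3 highest of each class and others where the text turns on them, and in each list for the 3 largest differences or, for the pump partners, the leading 2 in each direction; a few of these are not reported here, and some further list genes were named after their values were seen. Members and lists were chosen with earlier results of these data known. The E-box letters and the printed promoters were chosen after the values were seen.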

Additional observations from a re-analysis of the deposited data

How the results depend on the processing

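No paired analysis was possible because each condition has 1 library, and for the same reason no replicate could be left out. The median log2 value stayed above 0 under every alternative run for all members (0.09 to 0.14), membrane proteins (0.15 to 0.19), hydrolases (0.07 to 0.12), V0 (0.14 to 0.20) and V1 (0.01 to 0.07). A pseudocount keeps the sign of every gene, and the rescaling factors of 0.983 to 0.992 shift values little. Under those settings the sign of these medians was therefore largely fixed in advance. The lowest median of all members, 0.09, came with the trend of log2 value with transcript length removed. Counts depended on the limits. The 7 members past 1.2-fold higher became 3 with a pseudocount of 5, 4 among those averaging at least 5 RPKM, 3 among those averaging at least 10 RPKM, and 0 at a fold of 1.5 and at a fold of 2. The 1 past it lower became 0 with a pseudocount of 5 and at a fold of 1.5 and of 2. These settings shrink low values, remove low genes or raise the limit by construction. The 3 rescalings, which put the median of all genes between -0.01 and 0.00, left 7 and 1. With at least 50 reads over both libraries, chosen after the values were seen, the counts were 5 and 1. The ratio of the summed RPKM of all members, 1.10, was 1.08 with equal RPKM totals. That of membrane proteins, 1.15, was 1.09 without CD68 and CD63. The median of further lysosomal membrane proteins was -0.020 among those averaging at least 10 RPKM. The median of the mannose 6-phosphate list ranged from -0.05 to 0.05. Of 230 alternative values for 46 single genes, 3 lay on the other side of 1, all of ATP6V1B2, whose ratio is 1.01. Adding a pseudocount cannot move a ratio across 1. The rescaling factors of 0.983 to 0.992 can do so only for a ratio just above 1. That count was therefore largely fixed in advance and is no check of the other directions. Among the 44 members, TFEB, ATP6V1E2 and SMPD1 rest on the fewest reads.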

Other observations

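The genes that place mTORC1 on the lysosome and control TFEB were also examined. Of 25 genes averaging at least 1 RPKM, 6 were past 1.2-fold higher with HADH-S and 1 past it lower, where 11.5% of all genes were past it higher and 6.76% lower. The 6 became 3 with a pseudocount of 5 or with the trend with transcript length removed, and 2 among those averaging at least 10 RPKM, and the 1 became 0 under each of these. The list had a median log2 value of 0.05, which was -0.02 among those averaging at least 10 RPKM. WDR24, of the GATOR2 complex, stood at 6.76 RPKM in HADH-S cells and 4.70 RPKM in control cells (ratio 1.44, interval 1.09 to 1.91). NPRL3, of GATOR1, stood at 10.3 RPKM in HADH-S cells and 7.56 RPKM in control cells (ratio 1.36, interval 1.11 to 1.68). LAMTOR2, of the Ragulator scaffold, stood at 40.9 RPKM in HADH-S cells and 32.2 RPKM in control cells (ratio 1.27, interval 1.002 to 1.61). The 1 lower gene was ZKSCAN3, a repressor of autophagy genes, at 1.29 RPKM in HADH-S cells and 1.75 RPKM in control cells (ratio 0.734, interval 0.482 to 1.11).

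Of 23 genes of late endosome transport and lysosome fusion, 4 were past 1.2-fold higher and 2 past it lower, with a median log2 value of 0.03. Of all genes averaging at least 1 RPKM, 11.5% were past it higher and 6.76% lower. With a pseudocount of 5 the 4 and 2 became 2 and 0. The 2 lower became 4 when libraries were set to equal RPKM totals or equal 75th percentiles. The intervals of 4 of the 23 genes lay above 1 and those of 3 below it, against 13.8% and 11.6% of all genes. PLEKHM1, an adaptor between RAB7A and the HOPS tether, stood at 9.13 RPKM in HADH-S cells and 5.52 RPKM in control cells, from 333 and 196 reads (ratio 1.65, interval 1.38 to 1.98). BLOC1S1, of the BORC complex that positions lysosomes, stood at 19.1 RPKM in HADH-S cells and 13.7 RPKM in control cells (ratio 1.39, interval 0.969 to 2.02).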
